A study of Mus musculus with 32 samples.

Results

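The genes described here are 10 imprinted regulators of growth (Igf2, H19, Dlk1, Meg3, Mest, Peg3, Plagl1, Cdkn1c, Grb10 and Igf2r), measured in mouse sciatic nerve. They were chosen by name from 45706 genes with earlier results of the same libraries in view, so their differences between transgenic and non-transgenic nerves are given as a description. All 10 were found by gene identifier, and all 10 were among the 15403 genes that passed the filter on low counts. The 32 libraries came from mice aged 6 months and fell into 4 genotypes. There were 7 WT libraries, 9 labelled Sipa1l2-/-, 8 labelled C3-PMP22 and 8 labelled C3-PMP22 Sipa1l2-/-, called the double mutant below. The C3-PMP22 line carries extra copies of the human PMP22 gene and serves to study an inherited form of Charcot-Marie-Tooth neuropathy with loss of normal myelin. Sipa1l2 has been reported to modify that disease. The comparisons asked how each mutant genotype differed from WT. Both C3-PMP22 groups are called transgenic and both others non-transgenic.

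Imprinted genes are expressed mainly from the copy inherited from the mother or from the father. In the imprinted growth network, genes expressed from the paternal copy (Igf2, Dlk1, Mest, Peg3, Plagl1) mostly favour growth of the fetus and its tissues, and several expressed from the maternal copy (H19, Cdkn1c, Igf2r, and Grb10 outside neurons) restrain it. Many are high in fetal tissue and fall after birth. Igf2 is a secreted growth factor that signals through the IGF1 and insulin receptors, Igf2r removes it from the cell surface, Grb10 dampens the receptors' signal, and Cdkn1c blocks the cell cycle. Plagl1 is a zinc finger transcription factor placed upstream of several of the others.

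The transcripts of 4 members also carry miRNA hairpins. These polyA libraries do not measure mature miRNAs, so the RefSeq sequences are shown only to identify what the host genes carry, with bases 2 to 8, the seed that pairs with targets, in capitals. The 9 mature miRNAs of Igf2, H19, Meg3 and Mest had 9 different seeds. Those of Igf2, H19 and Mest, 3 members whose levels differed between the sexes, read as follows.
mmu-miR-483-5p, in Igf2: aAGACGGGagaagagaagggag
mmu-miR-483-3p, in Igf2: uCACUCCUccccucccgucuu
mmu-miR-675-5p, in H19: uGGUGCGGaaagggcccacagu
mmu-miR-675-3p, in H19: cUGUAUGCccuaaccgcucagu
mmu-miR-335-5p, in Mest: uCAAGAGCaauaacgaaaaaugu
mmu-miR-335-3p, in Mest: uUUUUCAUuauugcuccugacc

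RefSeq promoter windows (GRCm38.p6, 250 bases before to 50 after the start) were present for 8 of the 10 members, in 15 windows. They were searched on both strands for GGGGCCCC, the core sequence bound by the Plagl1 protein, which reads the same on both strands. It occurred in 1 of the 15 member windows, that of Peg3, and in 354 of all 32851 windows (1.1%). The Peg3 window is shown because, among the other 9 members, its gene followed Plagl1 most closely across the nerves, and the Dlk1 window because Dlk1 differed most between transgenic and non-transgenic nerves among the genes called there. Capitals mark the match, and the Dlk1 window has none. A match of letters is a description of the sequence and not a shown binding site.
Peg3, chr7:6730370-6730669, minus strand: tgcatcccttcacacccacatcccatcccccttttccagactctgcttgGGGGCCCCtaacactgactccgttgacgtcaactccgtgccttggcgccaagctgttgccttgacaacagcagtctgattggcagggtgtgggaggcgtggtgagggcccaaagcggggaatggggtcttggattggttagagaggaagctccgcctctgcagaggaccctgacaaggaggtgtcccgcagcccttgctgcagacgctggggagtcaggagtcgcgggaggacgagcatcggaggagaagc
Dlk1, chr12:109452573-109452872, plus strand: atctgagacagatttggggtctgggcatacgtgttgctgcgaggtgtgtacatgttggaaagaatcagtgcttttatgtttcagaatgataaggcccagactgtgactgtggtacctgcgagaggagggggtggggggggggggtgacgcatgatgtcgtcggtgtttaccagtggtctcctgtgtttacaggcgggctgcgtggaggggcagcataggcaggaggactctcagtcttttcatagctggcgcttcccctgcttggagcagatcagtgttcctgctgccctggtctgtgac

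Each library held between 11030976 and 16990990 gene counts. Animal numbers came in a plain series (19 libraries) and a series with the prefix G (13 libraries), and in the double mutant all 5 labelled females were plain and all 3 labelled males were G, so there sex and number series cannot be told apart. In 30 libraries the sex-linked genes Xist and Ddx3y followed the labelled sex, but 2 libraries labelled female (C3-PMP22 replicates 7 and 8) read as male, and results by sex are given with and without them. Gene-level Sipa1l2 counts did not check the genotype labels. They had a median of 73.4 CPM (counts scaled to the size of the library) in WT and 93.8 CPM in the libraries labelled Sipa1l2-/-, and the labels do not say which part of the gene was changed. The human transgene is not a row of the mouse table. Mouse Pmp22 had a median of 3021 CPM in WT and 2974 CPM in C3-PMP22, and 1549 CPM in double mutant nerves. Groups are named by their labels throughout. All 10 markers of myelinating Schwann cells were detected, with a summed level between 4746 and 28456 CPM per library, and the nerves also held variable amounts of fat and muscle RNA, with the muscle gene Acta1 between 0.575 and 19440 CPM and the adipocyte gene Adipoq between 250 and 1653 CPM. In such bulk tissue, fewer cells of a type and less RNA per cell cannot be told apart.

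On a per-length scale (CPM per kb of merged exons, mean ± SD over 32 libraries), H19 was the most abundant member at 64.0 ± 34.6. It was followed by Cdkn1c at 21.3 ± 3.93, Mest at 17.6 ± 22.0, Peg3 at 13.4 ± 9.91, Grb10 at 11.4 ± 3.30, Igf2r at 9.18 ± 1.88, Igf2 at 8.95 ± 3.81, Plagl1 at 4.33 ± 2.01 and Meg3 at 4.07 ± 1.10. Dlk1 was the lowest at 0.477 ± 0.403. For neighbours in this order between Cdkn1c and Igf2 the ranges of mean ± SD overlapped, as did those of Plagl1 and Meg3. The members also differed in how much they varied between nerves. Within genotypes, the SD of log2 CPM was 1.59 for Mest, 0.84 for Peg3, 0.81 for H19, 0.75 for Dlk1 and 0.67 for Plagl1. It was 0.43 for Igf2, 0.41 for Grb10, 0.31 for Igf2r, 0.27 for Cdkn1c and 0.26 for Meg3.

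Igf2 and Dlk1 were lower in both transgenic genotypes than in WT, and Mest was lower in the double mutant. No member was called higher. In C3-PMP22 against WT, 2 of the 10 members were called by edgeR's quasi-likelihood test (adjusted p under 0.05 over all genes tested), beside 0.688% of all genes tested. In the double mutant against WT, 3 members were called, beside 1.38% of all genes. In the double mutant against Sipa1l2-/-, 2 were called, beside 0.721%. With both transgenic genotypes set against both others, 3 were called, beside 3.32%. These comparisons share control libraries, and the members were chosen with them in view, so nothing is read from these counts. The median log2 fold change of the 10 members was -0.54 in C3-PMP22 against WT, where that of all genes was 0.04, and 10 of 10 fitted values were below 0. It was -0.40 in the double mutant against WT (all genes 0.01), where 8 of 10 were below 0. In C3-PMP22 the values of Cdkn1c and Igf2r lay close to 0. The share of all genes below 0 is not given here, and nothing is read from these signs either.

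Igf2 (chr7:142650766-142666816, minus strand, ENSMUSG00000048583) is the growth factor of the set. In WT nerves its lowest, median and highest levels were 40.3, 68.2 and 102 CPM, and in nerves labelled Sipa1l2-/- they were 35.1, 57.2 and 102 CPM. In C3-PMP22 they were 24.7, 30.7 and 43.4 CPM, and in the double mutant 29.2, 43.1 and 57.5 CPM. All 16 transgenic libraries lay below the non-transgenic median, though the pooled ranges overlapped. Within a sex they did not overlap once the 2 libraries of disputed sex were set aside. Among females, 7 transgenic nerves had 41.9 to 57.5 CPM and 8 non-transgenic nerves 64.7 to 102 CPM. Among males, 7 transgenic nerves had 24.7 to 34.1 CPM and 8 non-transgenic nerves 35.1 to 57.2 CPM. By labelled sex with both libraries kept, the ranges were also apart (transgenic females 27.4 to 57.5 CPM). With both libraries read as male they overlapped narrowly, since transgenic males reached 35.22 CPM and the lowest non-transgenic male had 35.06 CPM. The share of all genes that separate in this way is not given here. The fitted log2 fold change against WT was -0.92 ± 0.12 (SE) in C3-PMP22 (edgeR adjusted p = 7.24e-05) and -0.64 ± 0.12 in the double mutant (adjusted p = 0.00405). Against Sipa1l2-/- the double mutant was at -0.73 (edgeR adjusted p = 0.000535). Without a term for sex, both double mutant calls were lost, with edgeR adjusted p = 0.165 against WT and 0.227 against Sipa1l2-/-. Within the plain number series Igf2 in C3-PMP22 was lower than in WT by a log2 difference of -1.32 (4 against 3 libraries), and within the G series by -0.68 (4 against 4). These and the other within-series differences of genotypes have no term for sex. Labelled males were 3 of 4 C3-PMP22 and 1 of 3 WT libraries in the plain series, and 1 of 4 and 2 of 4 in the G series. With terms for series and labelled sex together, the C3-PMP22 value was -0.92 (edgeR adjusted p = 6.84e-05).

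**Figure D1:**
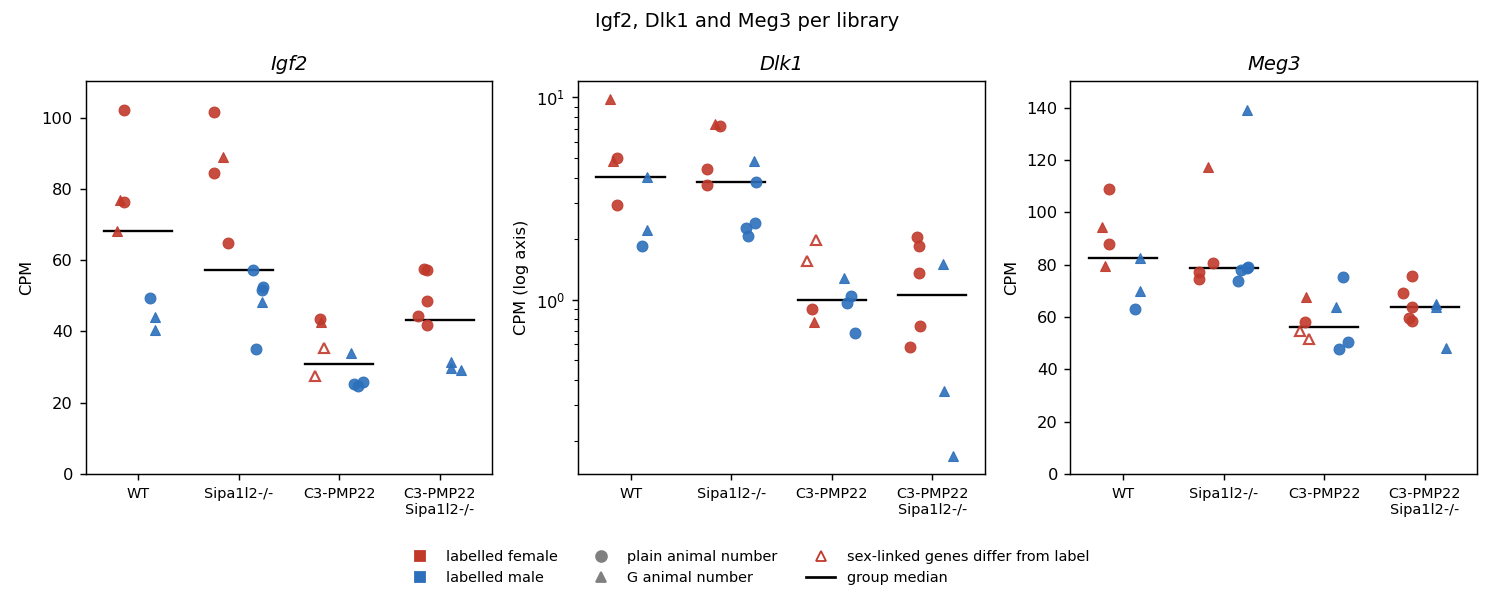
Levels of Igf2, Dlk1 and Meg3 in CPM (Dlk1 on a log axis) in each of the 32 libraries by genotype, with labelled sex in colour, number series by shape, open symbols for the 2 libraries whose sex-linked genes differ from the label, and a bar at the group median. Igf2 is lower in transgenic groups and in males, and Dlk1 medians are 4.02 and 3.80 CPM in the non-transgenic groups against 1.00 and 1.05 CPM in the transgenic ones.

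Dlk1 (chr12:109452823-109463336, plus strand, ENSMUSG00000040856) encodes a membrane-bound and shed protein of the Notch ligand family that holds progenitor cells, including preadipocytes, in an undifferentiated state. In WT nerves its lowest, median and highest levels were 1.84, 4.02 and 9.82 CPM, and in nerves labelled Sipa1l2-/- 2.06, 3.80 and 7.35 CPM. In C3-PMP22 they were 0.686, 1.00 and 1.96 CPM, and in the double mutant 0.168, 1.05 and 2.03 CPM. All 8 double mutant libraries lay below the lowest library labelled Sipa1l2-/-, and 7 of 8 libraries of each transgenic group lay below the lowest WT library. These levels rest on few reads, between 8 and 18 counts per C3-PMP22 library and between 2 and 29 per double mutant library, against 21 to 145 in WT. The log2 fold change against WT was -1.80 ± 0.34 in C3-PMP22 (edgeR adjusted p = 0.00596) and -2.05 ± 0.34 in the double mutant (adjusted p = 0.00141). Within the plain series the log2 difference of C3-PMP22 from WT was -1.61, and within the G series -1.67. With terms for number series and for sex read from sex-linked genes, the C3-PMP22 value was -1.47 and no longer called (edgeR adjusted p = 0.0619). Within each sex the transgenic and non-transgenic ranges of Dlk1 did not overlap when the 2 disputed libraries were set aside. Females had 0.584 to 2.03 CPM against 2.95 to 9.82 CPM, and males 0.168 to 1.5 CPM against 1.84 to 4.81 CPM. By labelled sex with both libraries kept, these ranges were the same. With both read as male, the male ranges overlapped, since transgenic males reached 1.96 CPM. The share of all genes that separate in this way is not given here.

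Meg3 (chr12:109541001-109571726, plus strand, ENSMUSG00000021268) is a long noncoding RNA expressed from the maternal copy of the same imprinted cluster as Dlk1. Its median was 82.5 CPM in WT (range 62.9 to 109), 78.6 CPM in Sipa1l2-/- (73.9 to 139), 56.3 CPM in C3-PMP22 (47.9 to 75.3) and 63.7 CPM in the double mutant (48.2 to 75.8). The groups overlapped, although all 16 transgenic libraries were below the non-transgenic median. The pooled transgenic groups were lower by -0.51 ± 0.09 on the log2 scale (edgeR adjusted p = 0.00108). Neither genotype alone passed the test against WT, with -0.50 ± 0.14 in C3-PMP22 (edgeR adjusted p = 0.0672) and -0.41 ± 0.13 in the double mutant (adjusted p = 0.123). The first was called when C3-PMP22 replicate 1, WT replicate 3 or Sipa1l2-/- replicate 8 was left out (edgeR adjusted p = 0.0374, 0.0329 and 0.0261). It was also called by DESeq2's Wald test (adjusted p = 0.0159). By edgeR it was called with replicate number as a block (0.0444) or an adipocyte marker score in the fit (0.0383). The second was called with that score (edgeR adjusted p = 0.0418) or with only the compared groups fitted (0.0440). In the other changes of method or model neither was called. The noncoding RNAs Rian and Mirg, which neighbour Meg3, had pooled log2 differences of -0.30 ± 0.10 and -0.50 ± 0.18, and neither was called (edgeR adjusted p = 0.0806 and 0.137). Dlk1 and Meg3 are expressed from opposite parental copies, and both were lower in the transgenic nerves.

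Mest (chr6:30723547-30748465, plus strand, ENSMUSG00000051855), a lipid-linked enzyme of the alpha/beta hydrolase fold that marks expanding fat tissue in mice, ranged over 51.9-fold between the lowest and the highest library. Its lowest, median and highest levels were 14.7, 114 and 309 CPM in WT, 11.9, 27.5 and 258 CPM in Sipa1l2-/-, 5.96, 14.7 and 249 CPM in C3-PMP22, and 9.59, 11.7 and 85.1 CPM in the double mutant. The ranges of the 4 groups overlapped widely. In the double mutant it was lower than in WT by -2.73 ± 0.62 on the log2 scale (edgeR adjusted p = 0.0206), the only genotype comparison in which edgeR called it with all libraries. That call depends on a single library, since without WT replicate 4 the value was -2.10 (edgeR adjusted p = 0.0904). Without a term for sex, and with number series and sex from sex-linked genes as terms, it was not called either. The fitted values were -1.96 ± 0.63 in C3-PMP22 (edgeR adjusted p = 0.129) and -1.95 ± 0.60 in Sipa1l2-/- (unadjusted p = 0.00279, adjusted p = 0.839). C3-PMP22 minus WT was -0.10 (log2) within the plain series and -3.05 within the G series. These values have no term for sex, in which Mest differed, and the sexes were unequal between the groups as for Igf2. The difference between the series was not tested. In the G series all 4 WT libraries were high (106 to 309 CPM). Among labelled females, only 2 WT libraries of the G series (replicates 4 and 6, 219 and 106 CPM) were high, and the other 15 females of the study lay between 5.96 and 27.5 CPM. Mest shares 912 exonic bases with Copg2 on the opposite strand, and no source used here says whether reads were assigned by strand. Copg2 varied little (group medians 48.9 to 55.7 CPM).

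Peg3 (chr7:6703892-6730431, minus strand, ENSMUSG00000002265), a zinc finger protein, had group medians of 232 CPM in WT (range 108 to 597), 116 CPM in Sipa1l2-/- (61.8 to 323), 148 CPM in C3-PMP22 (65.0 to 402) and 99.6 CPM in the double mutant (57.8 to 262). It was not called by edgeR in any genotype comparison. Its log2 values against WT were -0.81 ± 0.41 in C3-PMP22, -1.16 ± 0.39 in Sipa1l2-/- and -1.36 ± 0.40 in the double mutant (edgeR adjusted p = 0.289, 0.839 and 0.0814). DESeq2's Wald test called the double mutant value, at -1.37 (adjusted p = 0.0236). Plagl1 (chr10:13060504-13131694, plus strand, ENSMUSG00000019817) had medians of 33.8, 27.2, 25.0 and 30.8 CPM in WT, Sipa1l2-/-, C3-PMP22 and the double mutant, and its ranges overlapped throughout. Its log2 value in C3-PMP22 was -0.59 ± 0.34 (edgeR adjusted p = 0.352).

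H19 (chr7:142575529-142578143, minus strand, ENSMUSG00000000031) is the maternally expressed noncoding RNA that shares enhancers with Igf2. Its medians were 122 CPM in WT (range 109 to 364), 132 CPM in Sipa1l2-/- (84.2 to 303), 97.0 CPM in C3-PMP22 (59.0 to 286) and 167 CPM in the double mutant (44.5 to 297). Its log2 value in C3-PMP22 against WT was -0.44 ± 0.25 (edgeR adjusted p = 0.345), and it was -0.00 when series and sex from sex-linked genes were in the fit. With the 2 disputed libraries set aside, its transgenic and non-transgenic ranges overlapped in females (104 to 297 against 109 to 364 CPM) and, over a narrow stretch, in males (44.5 to 89.98 against 84.2 to 152 CPM).

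**Figure D2:**
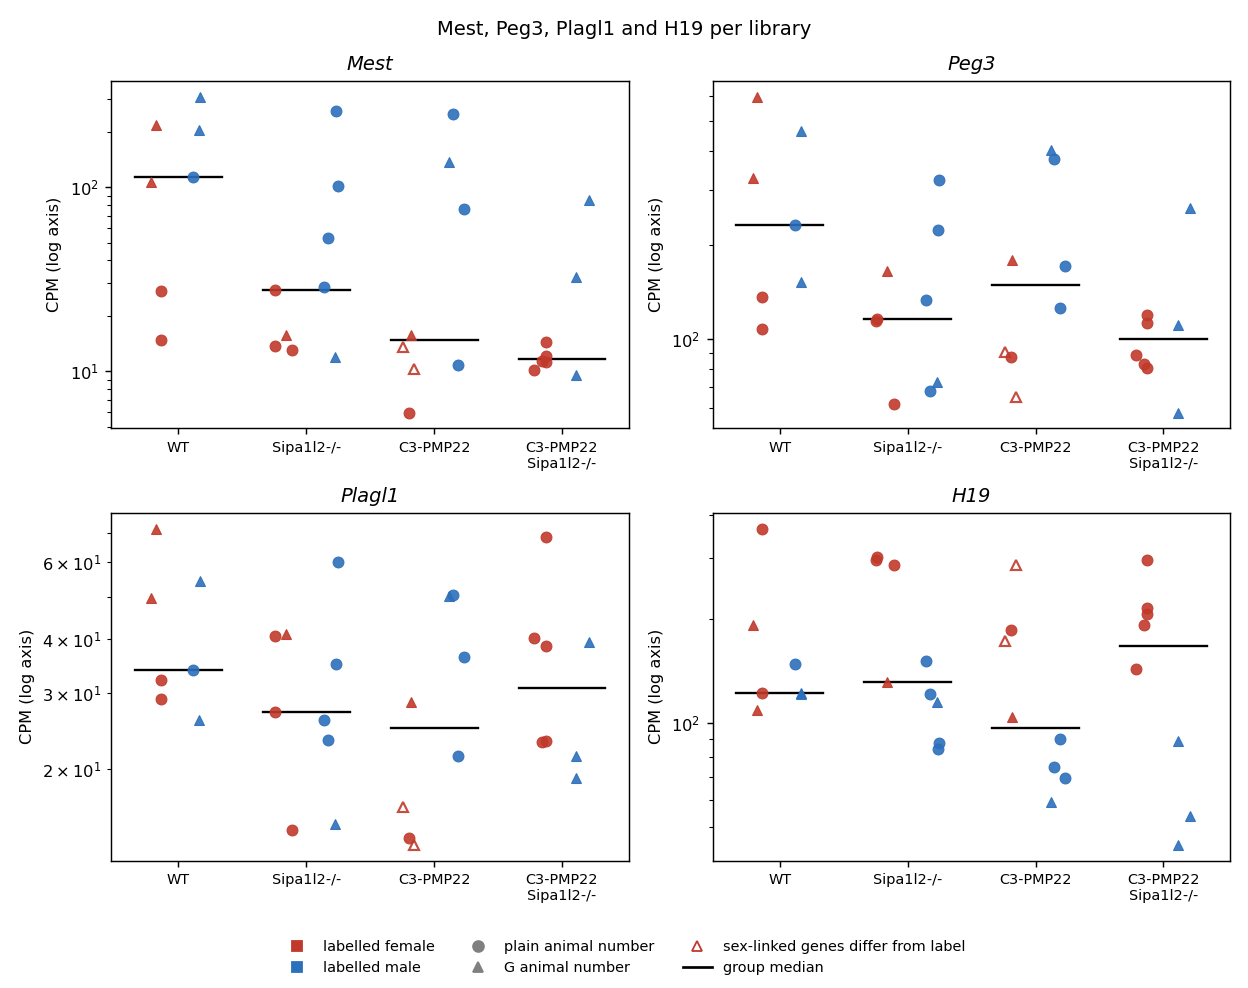
Levels of Mest, Peg3, Plagl1 and H19 in CPM (log axes) in each library by genotype, with colours, shapes and bars as in the plot of Igf2, Dlk1 and Meg3. Mest is high in most males and in only 2 females, both WT of the G series, while H19 is higher in labelled females, and the groups overlap for all 4 genes.

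The remaining members act inside the cell or at its surface to limit growth, and none of them was called in a genotype comparison. Cdkn1c (chr7:143458339-143461050, minus strand) had medians between 39.9 and 43.5 CPM in the 4 groups, and its log2 values against WT were -0.02 ± 0.14 in C3-PMP22, 0.12 ± 0.14 in Sipa1l2-/- and 0.04 ± 0.14 in the double mutant. For C3-PMP22 the interval ran from -0.30 to 0.25. Igf2r (chr17:12682406-12769664, minus strand) had medians between 82.7 and 87.5 CPM, and its C3-PMP22 value was -0.01 with an interval from -0.32 to 0.29. Airn, the noncoding RNA that silences the paternal copy of Igf2r, had medians between 5.16 and 5.56 CPM. Grb10 (chr11:11930508-12038683, minus strand) had medians of 101, 95.3, 82.1 and 138 CPM in WT, Sipa1l2-/-, C3-PMP22 and the double mutant. Its log2 values were -0.26 ± 0.18 in C3-PMP22 nerves and 0.06 ± 0.18 in double mutant nerves, and neither was called (edgeR adjusted p = 0.437 and 0.911). The double mutant libraries of Grb10 lay in separate ranges, at 130.8 to 166 CPM in the 5 females, all of the plain series, and 63.2 to 65.6 CPM in the 3 males, all of the G series. The first 5 lay above every C3-PMP22 library and the other 3 below every one (72.0 to 124.7 CPM), and sex and series cannot be told apart there. This split was not particular to Grb10. The same 5 and 3 libraries lay apart for Igf2r, at 82.5 to 106.7 and 59.8 to 71.0 CPM. They also did for H19 (143 to 297 and 44.5 to 88.65 CPM) and Igf2 (41.9 to 57.5 and 29.2 to 31.3 CPM).

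**Figure D3:**
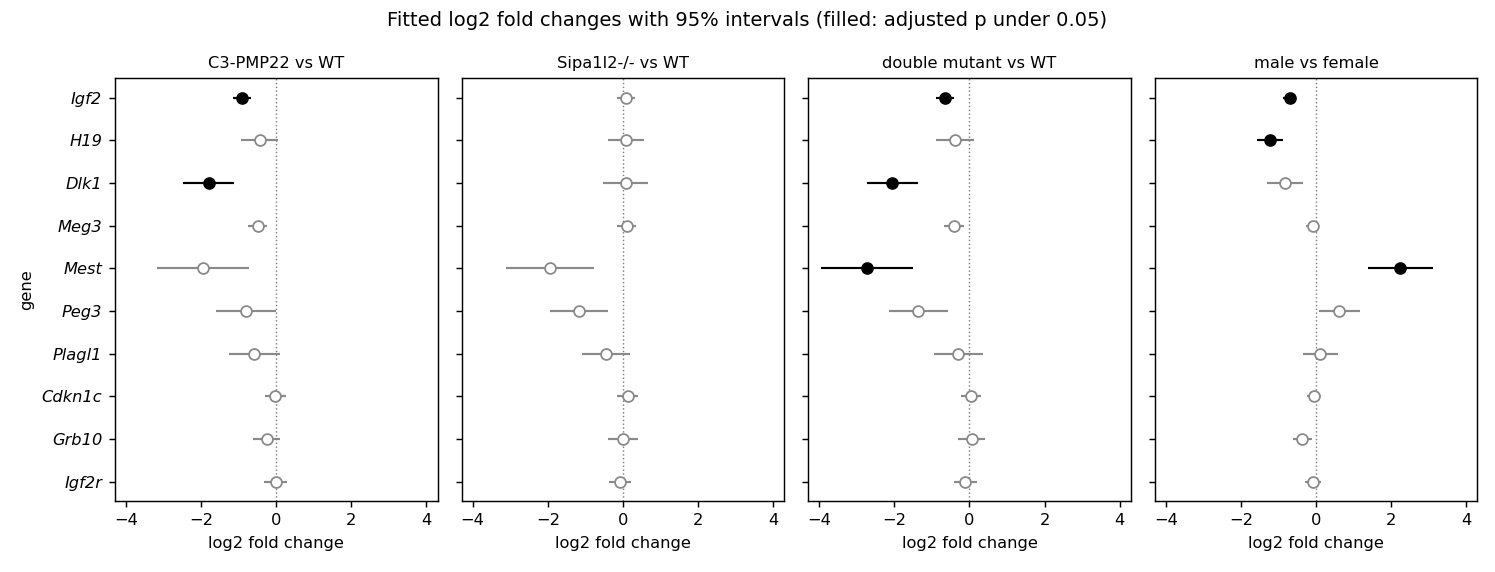
Fitted log2 fold changes (horizontal axis) with 95% intervals for the 10 genes in the comparisons of each mutant genotype with WT and of males with females, with filled points where the edgeR adjusted p is under 0.05. Igf2 and Dlk1 are called below 0 in both transgenic genotypes, no gene is called in Sipa1l2-/-, and Mest is called below 0 in the double mutant and above 0 in males.

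Loss of Sipa1l2, as labelled, gave no called member. In Sipa1l2-/- against WT, 0 of 15403 genes were called by edgeR (0%), 803 had an unadjusted p under 0.05 and DESeq2 called 0. Among the members, Mest and Peg3 had an unadjusted p under 0.05, and Igf2 and Dlk1 had log2 values of 0.08 ± 0.12 and 0.07 ± 0.31. In both Sipa1l2-/- genotypes against both others edgeR also called 0 genes (0%), with 1044 unadjusted and 12 by DESeq2, none of them a member. Mest was at -1.36 ± 0.41 (unadjusted p = 0.00254, edgeR adjusted p = 0.492) and Peg3 at -0.86 ± 0.28 (unadjusted p = 0.00403, adjusted p = 0.551). The double mutant did not differ detectably from C3-PMP22 in any gene by edgeR (0%, 1243 unadjusted, 11 by DESeq2 and none a member). The test of whether the transgene's effect differed with Sipa1l2 genotype called 0 genes (0%, 987 unadjusted, 3 by DESeq2). For Igf2 that difference was 0.19 with an interval from -0.14 to 0.52, and for Dlk1 it was -0.32 with an interval from -1.25 to 0.61.

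The sexes differed in 3 members. The sex comparison was not what the set was described over, although its results were also known. Males had less Igf2 and H19 and more Mest, and 207 of all 15403 genes (1.34%) were called by edgeR. For Igf2, WT females had 80.9 ± 14.7 CPM (SD, n = 4) and WT males 44.6 ± 4.54 CPM (n = 3). In Sipa1l2-/- the means were 84.9 ± 15.3 CPM in 4 females and 48.9 ± 8.40 CPM in 5 males, and in the double mutant 49.9 ± 7.19 CPM in 5 females and 30.1 ± 1.10 CPM in 3 males. The sexes did not overlap in any of these 3 genotypes. In C3-PMP22 the labelled sexes overlapped (37.2 ± 7.48 and 27.5 ± 4.41 CPM, n = 4 each), because replicates 7 and 8, labelled female, had 35.2 and 27.4 CPM. The other 2 females had 42.7 and 43.4 CPM, above all 4 males. The fitted log2 difference of males from females was -0.70 ± 0.08 (edgeR adjusted p = 1.01e-05), and -0.76 without both libraries (adjusted p = 1.94e-07). Within the plain series it was -0.71 and within the G series -0.52. The test of whether the transgene's effect on Igf2 differed between the sexes gave 0.24 ± 0.16 (edgeR adjusted p = 0.673), and it called 0 of all genes (0%, 1012 unadjusted, 4 by DESeq2).

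H19 was lower in males by -1.23 ± 0.18 on the log2 scale (edgeR adjusted p = 0.000257). Labelled males had a mean of 95.3 ± 33.1 CPM (SD, n = 15) and labelled females 212 ± 79.4 CPM (n = 17), and the ranges overlapped in WT and Sipa1l2-/-. Here replicates 7 and 8 of C3-PMP22, at 286 and 172 CPM, were high like the females and unlike their sex-linked genes. With sex read from sex-linked genes the value was -0.999 (edgeR adjusted p = 0.0306), and with a term for number series as well it was -0.92 and not called (adjusted p = 0.107). H19 also moved with muscle RNA. Across libraries with genotype means removed it correlated with the score of 15 skeletal muscle markers at r = 0.59 (permutation p adjusted over 80 relations = 0.00387) and rho = 0.61 (adjusted p = 0.00469), and at 0.50 without the 2 libraries farthest from the median score. The summed level of those markers ranged from 279 to 181899 CPM in labelled females (median 36300) and from 19.5 to 99790 CPM in labelled males (median 3446). Replicates 7 and 8 of C3-PMP22 had the highest muscle scores of the 32 libraries (4.61 and 4.15). Females by sex-linked genes reached 58458 CPM at most. Whether muscle RNA accounts for the high H19 of those 2 libraries was not tested. With the muscle score in the fit the sex difference was -1.01 (edgeR adjusted p = 0.00416). Muscle was not the only list that H19 followed. With non-myelinating and immature Schwann cell markers it had r = -0.64 and rho = -0.55 (adjusted permutation p = 0.00387 and 0.0195). With myelinating Schwann cell markers it had r = -0.51 (adjusted permutation p = 0.0568).

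Mest was higher in males by 2.24 ± 0.44 on the log2 scale (edgeR adjusted p = 0.00549), with medians of 85.1 CPM in 15 labelled males and 13.8 CPM in 17 labelled females. The sexes overlapped in every genotype, and 1 or more males of each mutant genotype were as low as the females. Within the plain series the log2 difference was 2.45 and within the G series 0.97. With sex from sex-linked genes it was 2.05 (edgeR adjusted p = 0.0339), and it was not called with the muscle score in the fit (1.92, adjusted p = 0.0694) or with series and sex from sex-linked genes (2.06, adjusted p = 0.0548). Dlk1 was at -0.83 ± 0.24 and was not called (edgeR adjusted p = 0.0781). Grb10 was at -0.37 ± 0.13 (edgeR adjusted p = 0.166) and Peg3 at 0.62 ± 0.28 (adjusted p = 0.301). The other 4 members had values between -0.09 and 0.12.

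The 10 genes did not move together as a single group from nerve to nerve. With genotype means removed, the 45 pairs had a median r of 0.13 over 32 libraries (range -0.68 to 0.83), where all pairs of the 15403 genes had a median of -0.01 and a 10th to 90th percentile of -0.41 to 0.44. In 28 pairs r was above 0. Adjusted over the 45 pairs, 10 had a permutation p under 0.05, of which 6 were positive and 4 negative.

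**Figure D4:**
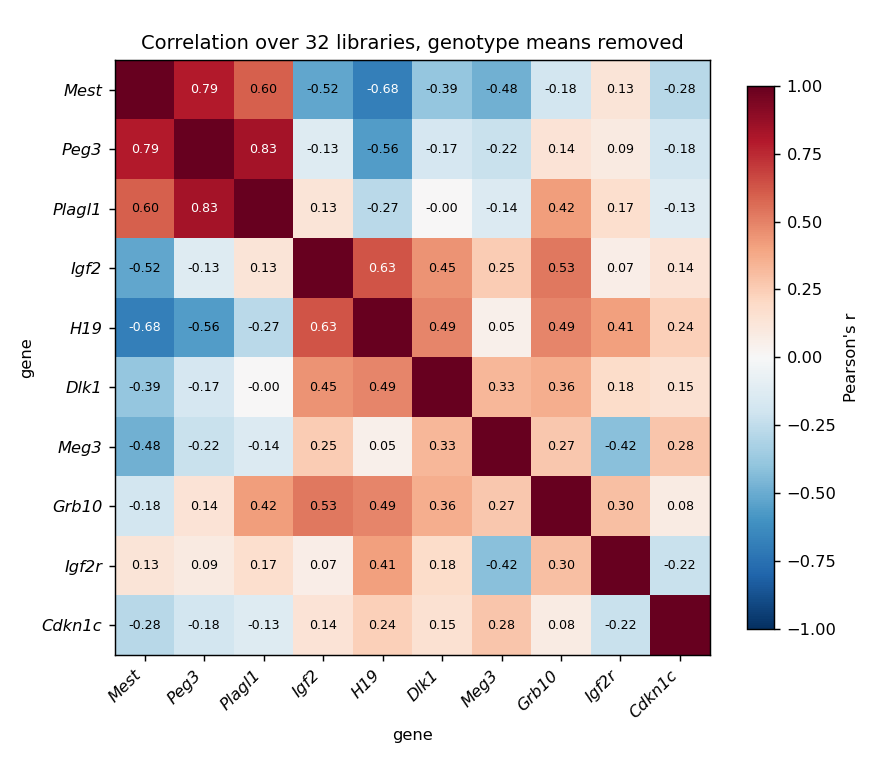
Pearson's r of log2 CPM between each pair of the 10 genes (both axes) over 32 libraries after genotype means were removed, with red above 0 and blue below 0. Mest, Peg3 and Plagl1 form a positive block (0.60 to 0.83), and Mest is negative with H19 (-0.68) and Igf2 (-0.52). With the means of sex from sex-linked genes removed too, these 2 negative values are -0.63 and -0.12.

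The tightest block was Mest, Peg3 and Plagl1. Peg3 and Plagl1 had r = 0.83 and rho = 0.83 (permutation p adjusted over 45 pairs = 0.000225 and 0.00045), and r = 0.79 without the 2 libraries farthest from the median. The value 1e-05 is the smallest unadjusted p that the 100000 permutations can give. Mest and Peg3 had r = 0.79 and rho = 0.75 (adjusted permutation p = 0.000225 and 0.0006), and 0.77 without the 2 farthest. Mest and Plagl1 had r = 0.60 and rho = 0.61 (adjusted permutation p = 0.00907 and 0.0063). These pairs held in both number series, at 0.81 and 0.94 for Peg3 with Plagl1, 0.81 and 0.80 for Mest with Peg3, and 0.65 and 0.65 for Mest with Plagl1 in the plain and the G series. With the means of sex from sex-linked genes removed too, r was 0.88, 0.85 and 0.76.

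All 3 genes of this block moved with fat RNA. Their r with the score of the adipocyte markers was 0.63 for Mest, 0.64 for Peg3 and 0.69 for Plagl1 (permutation p adjusted over 80 relations = 0.00387, 0.00286 and 0.00064), with rho of 0.62, 0.61 and 0.69 (adjusted permutation p = 0.0055, 0.00604 and 0.00133). Without the 2 libraries farthest from the median score r was 0.56, 0.60 and 0.68. The summed level of the 11 adipocyte markers tested ranged from 7305 to 19481 CPM in WT, 5546 to 22579 in Sipa1l2-/-, 5109 to 17319 in C3-PMP22 nerves, while in double mutants it was 5316 to 18240. None of the 11 was called by edgeR in any genotype comparison (3, 2 and 3 had an unadjusted p under 0.05 in C3-PMP22, Sipa1l2-/- and the double mutant against WT). Their median log2 value was -0.59, -0.44 and -0.43 in those comparisons. With the adipocyte trend removed, r was 0.70 for Peg3 with Plagl1, 0.65 for Mest with Peg3 and 0.29 for Mest with Plagl1. With the adipocyte score in the fit, Mest in the double mutant against WT was -1.71 (edgeR adjusted p = 0.0368), and in C3-PMP22 it was -0.82. Igf2 and Dlk1 did not follow the adipocyte score (r = 0.02 and -0.06), and their double mutant values with it in the fit were -0.61 and -2.06.

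**Figure D5:**
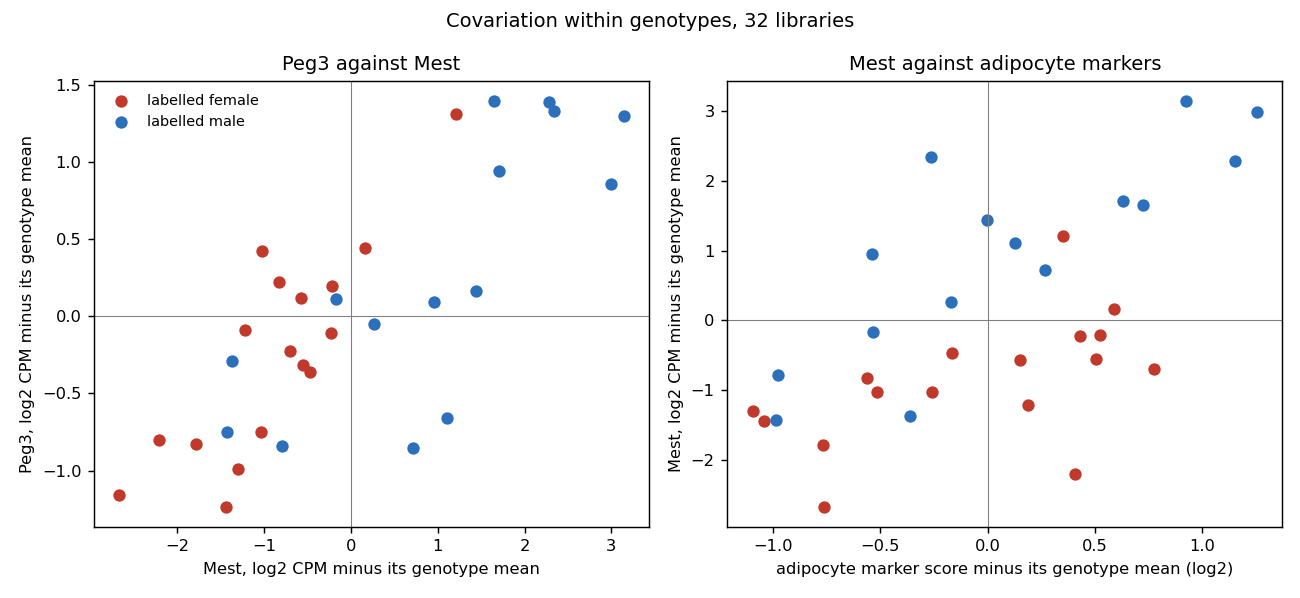
Left, Peg3 against Mest, and right, Mest against the adipocyte marker score, both axes as log2 values minus the mean of the library's genotype, in 32 libraries coloured by labelled sex. Mest rises with Peg3 (r = 0.79) and with the score (r = 0.63), and the high Mest values are mostly male.

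Igf2 and H19, neighbours on chromosome 7, had a pooled r of 0.63 and rho of 0.64 (adjusted permutation p = 0.00191 and 0.00214), but both differed by sex. Within sexes as read from sex-linked genes r was 0.27 in females and 0.22 in males, and it was 0.74 in the plain and 0.00 in the G series. Igf2 with Dlk1 had 0.45, and 0.05 with sex means removed. Igf2 with Mest, which differed by sex in opposite directions, had -0.52, and -0.12 with sex means removed. Dlk1 and Meg3, of the same cluster, had r = 0.33 and rho = 0.35 (adjusted permutation p = 0.169 and 0.147). H19 and Mest had r = -0.68 and rho = -0.67 (adjusted permutation p = 0.0003 and 0.0006), -0.63 without the 2 farthest libraries and -0.63 with sex means removed, and -0.74 and -0.81 in the plain and G series. The growth factor Igf2 and its clearance receptor Igf2r had r = 0.07 (adjusted permutation p = 0.722).

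Grb10, Igf2r and Cdkn1c, which were not called in any genotype comparison, correlated with other marker lists. Grb10 had r of 0.67 with fibroblast markers, 0.73 with macrophage markers and -0.73 with myelinating Schwann cell markers (permutation p adjusted over 80 relations = 0.000267, 0.0004 and 0.00387). In the G series these were 0.24, 0.15 and -0.23. With non-myelinating and immature Schwann cell markers Grb10 had -0.70 (adjusted permutation p = 0.00387), and -0.35 in the G series. Igf2r had -0.82 with non-myelinating and immature Schwann cell markers (adjusted permutation p = 0.000267) and held in both series (-0.75 and -0.77). With myelinating Schwann cell markers it had -0.75 (adjusted permutation p = 0.000267), and -0.60 and -0.72 in the plain and G series. With perineurial markers it had -0.54 (adjusted permutation p = 0.0182). Cdkn1c had 0.66 with perineurial markers (adjusted permutation p = 0.00286), with 0.74 and 0.48 in the series. With endothelial and pericyte markers it had -0.58 (adjusted permutation p = 0.00769).

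The genes whose levels were most like each member's, by Pearson's r over the 32 libraries with genotype means removed and among genes averaging 1 CPM or more, also differed between members. For Igf2 they were Xist at 0.87, Eif2s3x at 0.85 and Spon1 at 0.82, the first 2 being X-linked genes with higher levels in females. For Mest they were Sez6l at 0.95, Npr3 at 0.93 and Nap1l1 at 0.91. For Peg3 they included Mycbp2 at 0.89 and Itih5 at 0.89, and for Plagl1 Fmr1 at 0.86, Ebf1 at 0.85 and Ptbp3 at 0.85. For H19 they were Pdk1 at 0.87, Rpia at 0.86 and Mpst at 0.83. Dlk1 had the weakest likeness, with Scube2 at 0.66, Ybx2 at 0.62 and Myh10 at 0.62. For Meg3 the nearest was Gemin8 at 0.78, for Cdkn1c Shisa3 at 0.80, for Grb10 Itga11 at 0.89 and for Igf2r Hdlbp at 0.90. No member was among the 3 nearest genes of another.

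Other imprinted genes were measured on a list of 59 symbols, of which 58 were matched and 48 passed the filter. In C3-PMP22 against WT 0 were called by edgeR (0.688% of all genes), with a median log2 value of -0.04, and 10 of the 48 had an unadjusted p under 0.05, beside 2789 of all 15403 genes. In both transgenic genotypes against both others 4 of 48 were called, beside 3.32% of all genes. Atp10a (-0.45 ± 0.10), a phospholipid flippase, Sgce (-0.23 ± 0.06), a sarcoglycan, and Slc22a2 (-0.89 ± 0.23), an organic cation transporter, were lower (edgeR adjusted p = 0.00778, 0.0192 and 0.0261). Kcnq1ot1 (0.28 ± 0.07), the noncoding RNA of the Cdkn1c domain, was higher (edgeR adjusted p = 0.0289), and it lies antisense to Kcnq1. In the double mutant against WT 1 of 48 was called (1.38% of all genes), Slc22a2 at -1.34 ± 0.34 (edgeR adjusted p = 0.0397). Males had more Dio3 (1.19 ± 0.27), the thyroid hormone deiodinase at the far end of the Dlk1 cluster, and more Impact (0.19 ± 0.04), with edgeR adjusted p = 0.0189 and 0.0178.

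Of 25 genes of IGF and insulin signalling on the list, 23 passed the filter and 0 were called by edgeR in any genotype comparison. With both transgenic groups pooled, 5 of the 23 had an unadjusted p under 0.05, all of them lower, beside 2648 of all 15403 genes in either direction. The nearest to a call was the receptor Igf1r at -0.28 ± 0.11 (edgeR adjusted p = 0.159), followed by Igfals at -0.76 ± 0.30 (adjusted p = 0.169). The ligand Igf1 was at -0.14 ± 0.15. In males the binding protein Igfbp3 was lower at -0.98 ± 0.22 and the receptor substrate Irs1 at -0.44 ± 0.09 (edgeR adjusted p = 0.0161 and 0.00646), beside the lower Igf2.

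Markers of several cell types were called between transgenic and non-transgenic nerves, where 3.32% of all genes were called. With both transgenic groups pooled, 5 of 10 non-myelinating and immature Schwann cell markers were called higher by edgeR (Gfap, Apod, Pou3f1, Ednrb and Sox2), as were 3 of 13 macrophage markers (Cx3cr1, Trem2 and Aif1). Lower were 2 of 12 endothelial and pericyte markers (Acta2 and Flt1) and 1 of 8 perineurial markers (Lypd2). The lists did not all move as a whole. Fitted values above 0 were 7 of 10 for non-myelinating and immature Schwann cells and 12 of 13 for macrophages. They were 2 of 12 for endothelial cells and pericytes, 4 of 8 for perineurial cells and 8 of 17 for fibroblasts. Of 17 fibroblast markers tested 1 was higher (Cdkn2a, a cell cycle inhibitor that many cell types can express), and of 10 myelinating Schwann cell markers and 15 skeletal muscle markers none was called. The muscle markers had a median log2 value of 1.57 in C3-PMP22 against WT (14 of 15 above 0) and 0.60 in the double mutant (15 of 15). Their summed level had a median of 4188 CPM in WT and 3446 CPM in Sipa1l2-/-, against 42511 CPM in C3-PMP22 and 36161 CPM in double mutant nerves, with overlapping ranges. The myelinating markers had a median log2 value of -0.11 in C3-PMP22 (6 of 10 below 0) and -0.52 in the double mutant (9 of 10). With the muscle score in the fit, Igf2 and Dlk1 were at -0.90 and -1.78 in C3-PMP22 against WT (edgeR adjusted p = 9.78e-05 and 0.00816) and at -0.63 and -2.03 in the double mutant (adjusted p = 0.00529 and 0.00205). The summed fibroblast markers ranged from 8015 to 12361 CPM in WT, 9308 to 13110 in Sipa1l2-/-, 6292 to 13635 in C3-PMP22 nerves, while in double mutants they were at 9281 to 12321. The part of these cell types, muscle and fat included, in the lower Igf2 and Dlk1 was not tested.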

How the data were processed

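Poly(A) RNA of 32 mouse sciatic nerves was sequenced with paired reads, per the labels' protocols. Per the submitters' processing notes, the authors used Trim Galore, FastQC and RSEM on GRCm38 (mm10); versions, annotation and strand setting were not stated there. The authors deposited RSEM expected counts, which were already whole numbers and unscaled. Columns were assigned through the column letter in each sample's description.

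The filter was filterByExpr on genotype groups, with a count minimum of 10 and a total of 15. It left 15403 of 45706 genes, which held 99.7% or more of each library's counts. After TMM scaling, edgeR's quasi-likelihood test was run on all 32 libraries together (genotype plus labelled sex), with Benjamini-Hochberg adjustment over all genes and a threshold of 0.05. The transgene by sex interaction came from a fit with that term. CPM values are TMM-scaled, and log2 CPM uses a prior count of 2. Values after ± are SE for log2 fold changes and SD for CPM, and intervals are 95%. Tested on simulated counts for C3-PMP22 against WT (15403 genes), 38.8%, 65.7% and 89.4% of 1.5-, 2- and 4-fold changes were recovered.

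Correlations used log2 CPM with genotype means removed and 100000 permutations, two-sided. Scores are the mean centred log2 CPM of a marker list. No library pair held identical values. The labels do not say whether libraries came from separate animals beyond their animal numbers, so p-values measure the spread between these libraries.

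The members and all lists were chosen with earlier results of these data known. Named genes were all 10 members, list genes called at the threshold, the genes most like each member and reference markers. A gene most like Peg3 and a marker gene are not reported here. Genes named below the threshold were picked after their values were seen. The software was edgeR 4.0.16 and DESeq2 1.42.0 in R 4.3.3, with Python 3.11.15. Gene positions and overlaps come from GENCODE M21. Igf2 overlaps Gm49394 by 3596 exonic bases on the same strand, a gene that is not a row of the table. Alternatives were another scaling, other filters, DESeq2, other covariates and leaving out libraries.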

Additional observations from a re-analysis of the deposited data

Results flagged for a closer look

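Grb10 in C3-PMP22 replicate 1 stood apart from the rest of its group. It had 125 CPM (124.7), where the other 7 C3-PMP22 libraries had 72.0 to 88.2 CPM, and its gap to the nearest was 0.631 of the whole range, above Dixon's 95% critical value of 0.526 for 8 libraries. This was the only library marked among 40 combinations of gene and genotype tested, and chance marks about 1 in 20. No interaction test of a member passed the threshold.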

How the results depend on the processing

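The counts of members called were within 1.5 times the reported count in all alternatives but 5. In C3-PMP22 against WT the count was 2, and it became 4 with DESeq2's Wald test (Igf2, Dlk1, Meg3 and Mest). It became 1 with number series and sex from sex-linked genes as terms, a fit added after seeing the data. Without a sex term it fell to 1 in the double mutant against WT (from 3) and to 1 in the double mutant against Sipa1l2-/- (from 2). For males against females it was 3, and 1 with number series and sex from sex-linked genes. Leaving out each library in turn gave 2 to 3 members in C3-PMP22 against WT, 2 to 4 in the double mutant against WT, 2 to 3 in the double mutant against Sipa1l2-/-, 3 to 4 with both transgenic groups pooled and 3 to 4 between the sexes, and 0 to 0 in the other 5 comparisons. Over all genes, those fits called 71 to 409 in C3-PMP22 against WT (106 with all libraries), 112 to 293 in the double mutant against WT (213) and 124 to 321 between the sexes (207), and DESeq2 called 375, 499 and 443. Igf2 was called in C3-PMP22 against WT in all 15 settings tried, and Dlk1 in 14. With both transgenic groups pooled, Mest was called without WT replicate 1 or 3, Sipa1l2-/- replicate 3 or 8, or C3-PMP22 replicate 2 (edgeR adjusted p = 0.0251 to 0.0477). Without double mutant replicate 7, Peg3 was called against WT (0.0497). Dlk1 was called between the sexes without C3-PMP22 replicate 6 or double mutant replicate 8 (0.0449 and 0.0371). Meg3 in the double mutant against Sipa1l2-/- (adjusted p = 0.0508) was called without any of 6 libraries (0.0347 to 0.0499). Of 45 same-numbered pairs of libraries, 22 had a correlation over 0.1, and 7 of 32 libraries were most like a library of their own number. The mean correlation was 0.111 for same-numbered pairs and -0.013 for the others. These values do not settle whether sample numbers pair the libraries. With the replicate block, 3 members were called in C3-PMP22 against WT, 3 in the double mutant against WT, 2 against Sipa1l2-/-, 3 in both transgenic groups pooled and 2 between the sexes. The median pairwise correlation was 0.13, from 0.09 to 0.19 with a library left out, and 0.08 with the replicate block. Scaling by total counts moved the median log2 value of all genes in C3-PMP22 against WT from 0.04 to -0.12. Dlk1 had 2 to 29 counts per library in the double mutant, which limits its precision. The causes of these changes were not tested.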
